A study of Mus musculus with 6 samples.

Results

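The genes described here are 10 mouse genes that were selected on their normalized intensities, which were far higher on the arrays labelled anterior than on those labelled posterior. They are Trh, Liph, Lgals3, Gtsf1l, Enox1, Msc, Slc28a1, Nphs1, Ly6g6e and Pecam1. All 10 had at least 1 named probe, 15 probes in all, out of 9908 genes tested. The study read total RNA from immortalized cell lines of the E10.5 mouse embryo's limb on 6 bead arrays, 3 from an anterior line and 3 from a posterior line. The labels describe limb mesenchyme cells, and both groups express an SV40 T antigen that is temperature sensitive and drives cells to divide. The labels name 1 anterior and 1 posterior line and do not say whether a line is a clone or whether its samples were grown separately. A p-value here measures no more than how far these arrays scatter, and that scatter may be technical. Because the anterior excess chose the genes, their levels and differences are a description and carry no test.

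Most of the 10 encode proteins that leave the cell or sit at its surface. A hormone precursor (Trh), a phospholipase (Liph), an oxidoreductase of the outer surface (Enox1), a lectin (Lgals3), a nucleoside transporter (Slc28a1) and 3 receptors or adhesion proteins (Nphs1, Ly6g6e, Pecam1) belong to that class. The other two do not match a description as secreted or surface genes, since Msc encodes a DNA-binding transcription factor of the nucleus and Gtsf1l a relative of a protein that works with small RNAs in germ cells. Known sites of expression also differ widely, from hypothalamic neurons (Trh) and macrophages (Lgals3) to kidney podocytes (Nphs1), gut and kidney epithelium (Slc28a1) and endothelium, blood cells and mouse embryonic stem cells (Pecam1).

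Levels are normalized log2 intensities, in which background was subtracted, a constant was added and the arrays were brought to a common distribution, so that differences of dim probes are understated. Differences are anterior minus posterior, given with their standard error (SE) from the linear model. A probe counts as detected on an array at a detection p-value under 0.05. The detection columns share 1 name in the file header, and each was read as belonging to the intensity column before it; with probes sorted by intensity, the p-value rose 0 times within that pairing and at least 15936 times in any other. The arrays detected between 16052 and 18657 of 45281 probes, and arrays of 1 group correlated at 0.971 to 0.989 over the tested probes against 0.882 to 0.905 between groups. A gene was called by limma at a Benjamini-Hochberg adjusted p-value under 0.05, by which 21.5% of all tested genes were higher in anterior and 25.9% were higher in posterior. Of 10 tested pluripotent stem cell markers 8 were higher in anterior, 1 was higher in posterior and 1 was not called, with a median difference of 2.91. Of 5 tested limb mesenchyme markers 0 were higher in anterior and 4 were higher in posterior, with a median of -1.55. On the anterior arrays 3 of these 5 were detected on all 3 and 1 on none, and all 5 were detected on the 3 posterior arrays. Of 4 tested fibroblast markers 2 were higher in anterior and 1 was higher in posterior (median 0.44; Dcn was also higher in posterior with arrays scaled to a common median, limma adjusted p = 0.0420), and of 5 tested trophectoderm markers 1 was higher in anterior and 3 were higher in posterior (median -1.04). Pdgfra, a marker of early mesenchyme, was detected on no anterior array and on 3 of 3 posterior arrays. It passed the detection filter through posterior alone, as did Cdx2 and Gata3 of the trophectoderm markers. Tdgf1, a stem cell marker, passed through anterior alone. With only probes detected on all 6 arrays, 7 stem cell markers were higher in anterior and 0 in posterior. Limb mesenchyme markers then counted 0 and 2, and trophectoderm markers 1 and 0. The summed level of the stem cell markers, on the linear scale, was 19047 to 19871 in anterior and 2138 to 2677 in posterior. These markers go against the labelled cell type for the arrays labelled anterior, so the identity of those cells is in doubt, and anterior and posterior are used below as the labels of the 2 groups of arrays. On the posterior arrays, 9 of the 10 tested stem cell markers were detected on all 3 and 1 on none. Posterior means were 8.33 for Esrrb and 7.95 for Nanog. Whether the posterior arrays hold only limb mesenchyme was not tested. Of 12 limb mesenchyme markers 7 had no tested probe. The part of these markers in the levels below was not tested. In bulk RNA, fewer cells of a type and less RNA per cell cannot be told apart.

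Trh, the precursor from which thyrotropin-releasing hormone is cut, had deposited intensities of 2986, 6666 and 1584 on anterior replicates 1, 2 and 3. On posterior replicates 1, 2 and 3 the same probe (ILMN_1237934) read 144, 103 and 89.2. The groups did not overlap, and every array of either group detected the probe. After normalization the anterior levels were 11.72, 12.35 and 10.67 and the posterior levels 6.19, 5.88 and 5.51, a difference of 5.72 (SE 0.38). Trh was the most variable of the 10 within anterior, with an SD of 0.85 (n = 3) that exceeded the anterior SD of 98.6% of genes. Its highest anterior intensity was 4.21 times its lowest, while the least variable in that respect, Pecam1, had a ratio of 1.29. Anterior replicate 3 was the lowest of the 3, and it still lay 4.47 above the highest posterior array on the log2 scale. Without anterior replicate 3 the difference was 6.15.

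Peptide hormone precursors are cut by proprotein convertases, trimmed by a carboxypeptidase and amidated by the enzyme PAM. Of 14 genes of TRH processing, release and reception, 5 had a tested probe, and 1 was higher in anterior and 2 were higher in posterior by limma with Benjamini-Hochberg adjustment over all probes. The median difference of the 5 was -0.47, against -0.03 over all tested genes. Cpe, the carboxypeptidase that trims such precursors, had levels of 6.05, 6.24 and 6.19 in anterior and 8.91, 9.84 and 9.36 in posterior, a difference of -3.22 (SE 0.22, limma adjusted p = 1.49e-05). The convertase gene Furin was likewise higher in posterior (-1.21, SE 0.14), whereas the convertase gene Pcsk6 was higher in anterior (1.25, SE 0.12). Pam, with means of 5.10 and 4.93, did not pass (limma adjusted p = 0.333). Of 9 neuroendocrine markers 2 were tested, and Scg5, a chaperone of prohormone convertase, was at least 1.92-fold higher in posterior, with no anterior array detecting it, while Syp did not pass (limma adjusted p = 0.170), except without anterior replicate 3 (0.0242). Pcsk1, Pcsk2, Trhr and Trhde had no named probe and are not analysed here.

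Liph encodes a membrane-associated lipase that releases lysophosphatidic acid from phosphatidic acid. Its probe ILMN_1217063 read 756, 1419 and 1261 on the anterior arrays and 97.9, 77.7 and 90.9 on the posterior arrays. Its other probe, ILMN_2760434, read 485, 958 and 868 in anterior and 89.1, 65.4 and 73.4 in posterior. Both probes separated the groups without overlap and gave nearly the same difference, 4.78 (SE 0.19) and 4.65 (SE 0.21). The fainter probe was not detected on posterior replicate 2, and all other readings of the 2 probes were above the detection limit.

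The Liph promoter is shown because it was the only one of the 7 available promoters of these genes that holds the octamer ATGCAAAT, the element read by OCT factors such as OCT4. The window runs from 250 bases before the gene start to 50 after it, from RefSeq on build GRCm38.p6, chr16:21995493-21995792, minus strand. Capitals mark the octamer and a CCAAT box.
Liph: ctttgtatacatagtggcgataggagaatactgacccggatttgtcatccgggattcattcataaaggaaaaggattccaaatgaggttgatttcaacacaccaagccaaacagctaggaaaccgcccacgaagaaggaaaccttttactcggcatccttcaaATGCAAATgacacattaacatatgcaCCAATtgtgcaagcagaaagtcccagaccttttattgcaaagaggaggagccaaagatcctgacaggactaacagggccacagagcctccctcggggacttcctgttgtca
The octamer was searched on both strands and occurs in 1.74% of 32851 promoter windows of the same length, and CCAAT in 37.4%. A nuclear receptor site (TCAAGGTCA) and a KLF box (CCACACCC) were also searched and were found in 0 of the 7 windows. They occur in 0.423% and 3.56% of all windows. The Liph window also holds 1 GC box (GGGCGG) and 5 E-boxes (CANNTG), which are not marked. These motifs occur in 35.7% and 72.3% of all windows. All such matches describe letters in a window. The octamer is absent from the windows of Trh, Lgals3, Gtsf1l, Enox1, Slc28a1 and Nphs1, and no promoter was at hand for Msc, Ly6g6e and Pecam1.

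Genes that make, sense or break down lysophosphatidic acid went both ways. Of 16 such genes 12 were tested, and 4 were higher in anterior, 5 were higher in posterior and 3 were not called (median difference -0.48). The shares over all tested genes were 21.5% higher in anterior and 25.9% higher in posterior. Pla1a, a phospholipase of the same lipase family as Liph, had levels of 8.64, 8.83 and 8.74 in anterior and 5.57, 5.41 and 5.24 in posterior. It was higher in anterior by 3.33 (SE 0.14, limma adjusted p = 1.60e-06). Dgka, which makes phosphatidic acid from diacylglycerol, was also higher in anterior (1.82, SE 0.14). The receptor genes for lysophosphatidic acid did not move as 1 group. Lpar3 was detected on no anterior array and was at least 4.19-fold higher in posterior, Lpar6 was higher in posterior (-1.70, SE 0.30), and Lpar1 was higher in anterior (0.78, SE 0.17). With arrays scaled to a common median the count higher in anterior was 2, since the calls of Lpar1 (limma adjusted p = 0.112) and of Plpp1, a lipid phosphatase gene (0.57, SE 0.14 as reported), were lost (0.357 for Plpp1).

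Enox1 encodes an enzyme of the cell surface that oxidizes hydroquinones and NADH and exchanges disulfides with thiols. Its probe ILMN_2749695 read 606, 905 and 749 on the anterior arrays and 81.4, 80.7 and 73.6 on the posterior arrays. After normalization the anterior levels were 9.50, 9.50 and 9.59 and the posterior levels 4.95, 5.21 and 4.91. The groups were 4.51 apart (SE 0.14), and the posterior values lay close to the detection limit, with detection p-values of 0.0064, 0.0021 and 0.0107. Its anterior SD of 0.05 (n = 3) was the smallest of the 10 genes.

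The promoters of Enox1 and Gtsf1l are shown together because they had the highest and the lowest CpG content of the 7 available ones, although the genes differed between the groups by almost the same amount, 4.51 for each. The windows are chr14:77156513-77156812 on the plus strand for Enox1 and chr2:163089552-163089851 on the minus strand for Gtsf1l, from RefSeq on GRCm38.p6, with each CG in capitals.
Enox1: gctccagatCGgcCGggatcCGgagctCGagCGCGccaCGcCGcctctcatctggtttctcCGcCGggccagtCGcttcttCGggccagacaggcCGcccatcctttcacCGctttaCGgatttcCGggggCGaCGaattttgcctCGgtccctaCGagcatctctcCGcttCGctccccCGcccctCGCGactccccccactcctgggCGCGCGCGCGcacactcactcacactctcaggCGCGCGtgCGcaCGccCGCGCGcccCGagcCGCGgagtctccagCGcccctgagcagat
Gtsf1l: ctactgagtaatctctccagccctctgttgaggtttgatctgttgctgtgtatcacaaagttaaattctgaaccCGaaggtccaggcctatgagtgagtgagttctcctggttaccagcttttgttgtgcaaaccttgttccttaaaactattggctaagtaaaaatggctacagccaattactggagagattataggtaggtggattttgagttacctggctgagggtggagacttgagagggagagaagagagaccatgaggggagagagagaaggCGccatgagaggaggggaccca
The Enox1 window holds 42 CG pairs, 1.20 times the number that its C and G content would give by chance order, more than in 99.5% of all windows. The Gtsf1l window holds 2, for a ratio of 0.13 against a median of 0.38 over all windows. The other five available ratios were 0.88 for Trh, 0.56 for Lgals3, 0.50 for Nphs1, 0.45 for Liph and 0.16 for Slc28a1. The 7 windows thus covered CpG-rich and CpG-poor starts, and TATAAA was found in 0 of them, against 13.6% of all windows.

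Among 9 genes of plasma membrane redox 7 were tested, and 3 were higher in anterior, 0 were higher in posterior and 4 were not called (median difference 0.19). Enox2, the close relative of Enox1, had levels of 5.68, 5.53 and 5.76 in anterior and 5.78, 5.39 and 5.72 in posterior. The groups overlapped, and its difference was 0.03 (SE 0.15, limma adjusted p = 0.902). Nqo1, a quinone reductase of the cytosol, was higher in anterior by 1.69 (SE 0.15), and Steap1 by 0.57 (SE 0.14), the latter not with arrays scaled to a common median (limma adjusted p = 0.399).

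Lgals3 encodes galectin-3, a lectin that binds galactose-containing sugars and is a classic marker of macrophages. Its probe ILMN_1223317 read 925, 1678 and 910 on the anterior arrays and 96.7, 96.3 and 76.7 on the posterior arrays. The groups did not overlap, with normalized levels of 10.12, 10.39 and 9.88 in anterior and 5.33, 5.71 and 5.04 in posterior, and the means (± SD, n = 3) were 10.13 ± 0.26 and 5.36 ± 0.33, a difference of 4.77 (SE 0.21). The other galectins were called in both directions. Of 11 genes of galectins and their partners 8 were tested, and 1 was higher in anterior, 3 were higher in posterior and 4 were not called (median difference -0.38). The shares over all tested genes were 21.5% higher in anterior and 25.9% higher in posterior. Lgals1, the galectin of mesenchyme and muscle, lay at 10.20, 10.11 and 9.96 in anterior and 12.95, 12.98 and 12.79 in posterior, a difference of -2.82 (SE 0.14, limma adjusted p = 2.62e-06). Lgals4, the galectin of gut epithelium, was higher in posterior by nearly as much (-2.84, SE 0.33). Lgals9 was the 1 that was higher in anterior, at least 2.15-fold, with no posterior array detecting it. The count higher in anterior was therefore 0 when only probes detected on all 6 arrays were kept.

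Macrophage and other leukocyte markers were mostly not measured. Of 13 such genes 3 were tested, and 2 of these were higher in anterior (median difference 1.73). The lysosomal membrane protein gene Laptm5 lay at 10.81, 11.14 and 11.70 in anterior and 8.08, 7.73 and 7.92 in posterior, a difference of 3.30 (SE 0.23, limma adjusted p = 1.40e-05). The T cell receptor subunit gene Cd3e was higher in anterior by 1.73 (SE 0.18), and Coro1a did not pass. The summed linear level of the 3 was 1993 to 3524 in anterior and 331 to 425 in posterior. The defining markers Ptprc, Adgre1, Csf1r and Spi1 had no named probe, so the part of such cells in the level of Lgals3 or Pecam1 was not tested.

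**Figure D1:**
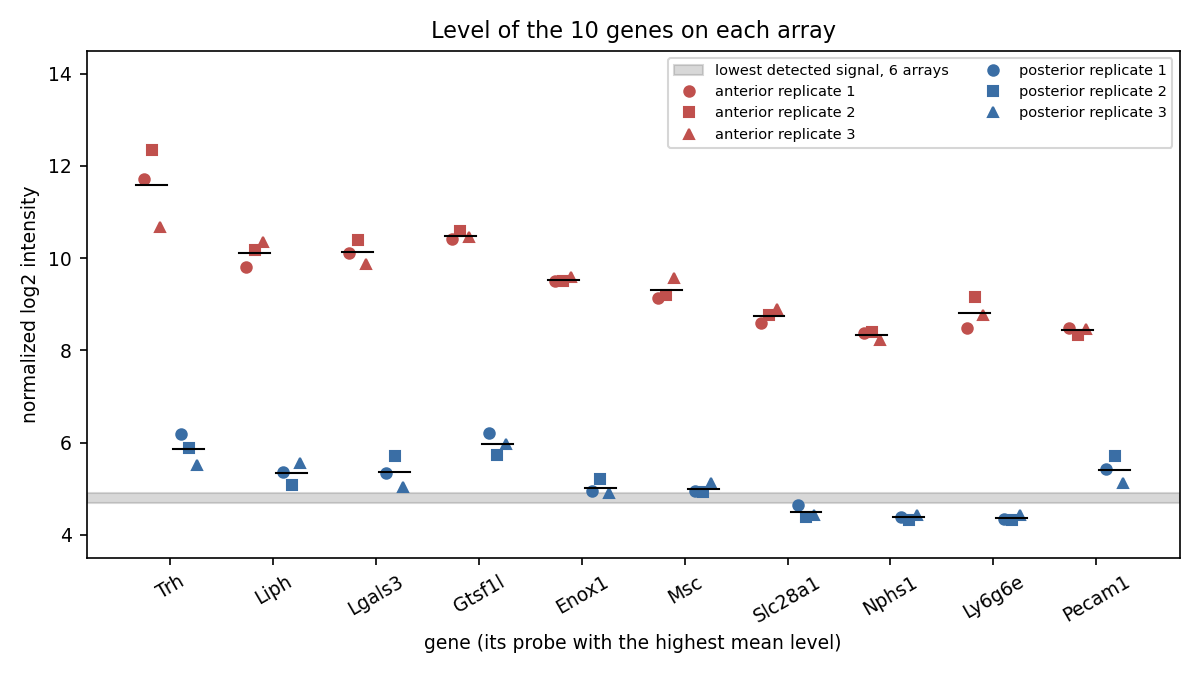
Normalized log2 intensity (vertical axis) of the 10 genes, each by its probe with the highest mean level, on the 3 anterior (red) and 3 posterior (blue) arrays, with symbols for replicates, black lines for group means and a grey band for the lowest detected signals of the 6 arrays (4.70 to 4.91). For each gene the anterior arrays lie above the posterior arrays, and the posterior values of Slc28a1, Nphs1 and Ly6g6e lie under the band.

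Slc28a1 encodes CNT1, which carries pyrimidine nucleosides into cells together with sodium. Its probe ILMN_3161390 read 337, 542 and 466 in anterior and 71.1, 60.4 and 61.9 in posterior. No posterior array detected it, so its level there is only a bound and it lay at least 16.2-fold higher in anterior. Posterior replicate 1 came nearest to detection, with a detection p-value of 0.0694. Of 15 genes of nucleoside transport and pyrimidine salvage 12 were tested, and 5 were higher in anterior, 2 were higher in posterior and 5 were not called (median difference 0.27). Slc29a1, which encodes the sodium-independent nucleoside carrier ENT1, lay at 10.06, 10.11 and 9.73 in anterior and 7.57, 7.22 and 7.19 in posterior, a difference of 2.64 (SE 0.17, limma adjusted p = 9.71e-06). Upp1, uridine phosphorylase, was higher in anterior by 1.96 (SE 0.28), Dctd, deoxycytidylate deaminase, by 1.48 (SE 0.19) and the uridine kinase gene Uck2 by 1.10 (SE 0.19). The cytidine deaminase gene Cda was at least 2.41-fold higher in posterior, with no anterior array detecting it. Uck1, another uridine kinase gene, was higher in posterior (-0.67, SE 0.22), but not without anterior replicate 1 (limma adjusted p = 0.0976) or 3 (0.0547), without posterior replicate 2 (0.0987) or 3 (0.106), or without the detection filter (0.115). Slc29a4 passed narrowly (0.36, SE 0.13) and lost its call with arrays scaled to a common median (limma adjusted p = 0.842), with trend and robust variances (0.0773) and without any 1 array (0.0654 to 0.174). Slc28a2 and Slc28a3, the closest relatives of Slc28a1, had no named probe.

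Nphs1 encodes nephrin, the adhesion protein of the podocyte slit diaphragm, the filter between the foot processes of kidney podocytes. Its probe ILMN_2621716 read 294, 420 and 308 in anterior and 61.8, 57.7 and 62.1 in posterior. The normalized anterior levels were 8.37, 8.39 and 8.23, and no posterior array detected the probe, which puts it at least 12.1-fold higher in anterior. Of 18 podocyte and slit diaphragm genes 8 were tested, and 0 were higher in anterior, 3 were higher in posterior and 5 were not called (median difference -0.34). Synpo, an actin-binding protein of podocyte foot processes, lay at 4.76, 4.83 and 5.12 in anterior and 8.91, 9.61 and 9.07 in posterior (-4.30, SE 0.20, limma adjusted p = 2.42e-06). Plce1, a phospholipase C, was at least 1.10-fold higher in posterior, with no anterior array detecting it, and was not called in the authors' deposited values (limma adjusted p = 0.0874). Podxl, a sialomucin of the podocyte surface that stem cells and endothelium also carry, was higher in posterior by 1.39 on the log2 scale (SE 0.40), with levels of 7.38, 8.03 and 7.29 in anterior and 7.95, 9.41 and 9.52 in posterior. These groups overlapped, and the call of Podxl was lost without anterior replicate 1 (limma adjusted p = 0.0770) or 3 (0.0667), without posterior replicate 2 (0.0875) or 3 (0.0700), with trend and robust variances (0.0535) and without the detection filter (0.119). The summed linear level of the 8 genes was 1610 to 2164 in anterior and 2532 to 3228 in posterior. The podocyte genes Kirrel and Wt1 had no named probe.

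Ly6g6e belongs to the Ly6 family, small cysteine-rich proteins that a glycolipid anchor holds at the cell surface, and its gene lies in the major histocompatibility complex. Its probe ILMN_2991389 read 313, 706 and 432 in anterior and 59.9, 57.4 and 62.1 in posterior. Its other probe, ILMN_1215409, read 175, 251 and 176 in anterior and 59.1, 59.4 and 59.6 in posterior. No posterior array detected either probe, and the gene lay at least 16.8-fold higher in anterior by the one and at least 6.43-fold by the other. Anterior replicate 2 read highest on both.

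The Ly6 family as a whole went both ways. Of 18 genes 9 were tested, and 4 were higher in anterior, 4 were higher in posterior and 1 was not called (median difference 0.56). The shares over all tested genes were 21.5% higher in anterior and 25.9% higher in posterior. Of the 4 that were higher in anterior, 3 belong to the same gene group as Ly6g6e in the major histocompatibility complex. Ly6g6d had levels of 6.43, 6.66 and 6.26 in anterior and 4.73, 4.43 and 4.41 in posterior, where 1 of 3 arrays detected it, a difference of 1.93 (SE 0.16, limma adjusted p = 3.86e-05). Ly6g6c was at least 1.65-fold higher in anterior and Ly6g5c at least 1.55-fold, with no posterior array detecting them, so that these passed the detection filter through anterior alone. Ly6e, the widely expressed member of another chromosome, was higher in anterior by 1.37 (SE 0.26). Lypd6 was at least 2.01-fold higher in posterior and Lynx1 at least 1.35-fold, and Cd59a had a difference of -0.47 (SE 0.16). Lypd3 was the last of the 4 (-0.56, SE 0.18), and its call was lost without background correction (limma adjusted p = 0.0662), with an offset of 50 (0.0574), in the authors' deposited values (0.0816), without the detection filter (0.0757), without anterior replicate 2 (0.0809) or 3 (0.0710) and without posterior replicate 1 (0.106) or 3 (0.116). The count higher in posterior was 2 without the detection filter or anterior replicate 2 and 0 to 1 without any 1 posterior array, and the count higher in anterior was 2 without any 1 anterior array. When only probes detected on all 6 arrays were kept, 1 was higher in anterior and 2 were higher in posterior. Without any 1 posterior array the brightest probe of Lypd6 no longer passed the detection filter, and the gene, then read by another probe, was not called (limma adjusted p = 0.0588 to 0.134), and the call of Cd59a was lost without anterior replicate 1 (0.0829) or 2 (0.103), without any 1 posterior array (0.0824 to 0.116) and without the detection filter (0.0609).

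Pecam1 encodes CD31, an adhesion protein that binds itself on neighbouring cells. It had 3 probes. ILMN_2700982 read 316, 408 and 358 in anterior and 100.6, 96.3 and 78.5 in posterior, ILMN_3147074 read 137, 184 and 169 in anterior and 75.0, 70.5 and 69.7 in posterior, and ILMN_1226690 read 83.6, 96.8 and 88.2 in anterior and 61.0, 61.2 and 64.3 in posterior. Each probe separated the groups without overlap. The difference was 3.02 (SE 0.17) by the first and 2.28 (SE 0.13) by the second, which was not detected on posterior replicate 3. The last was detected on no posterior array and has only a bound, at least 1.80-fold higher in anterior. The platform assigns the 3 probes to different transcript records. With the mean of the probes, the last included, the difference was 2.15. The range of the 3 differences, the undetected last one included, exceeded that of 98.6% of the 3560 genes with several tested probes. The median range of those genes was 0.29. They were not matched to Pecam1 in number of probes or in size of the group difference, and a range can grow with either. The share is therefore no measure of how unusual the disagreement of its probes is.

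**Figure D2:**
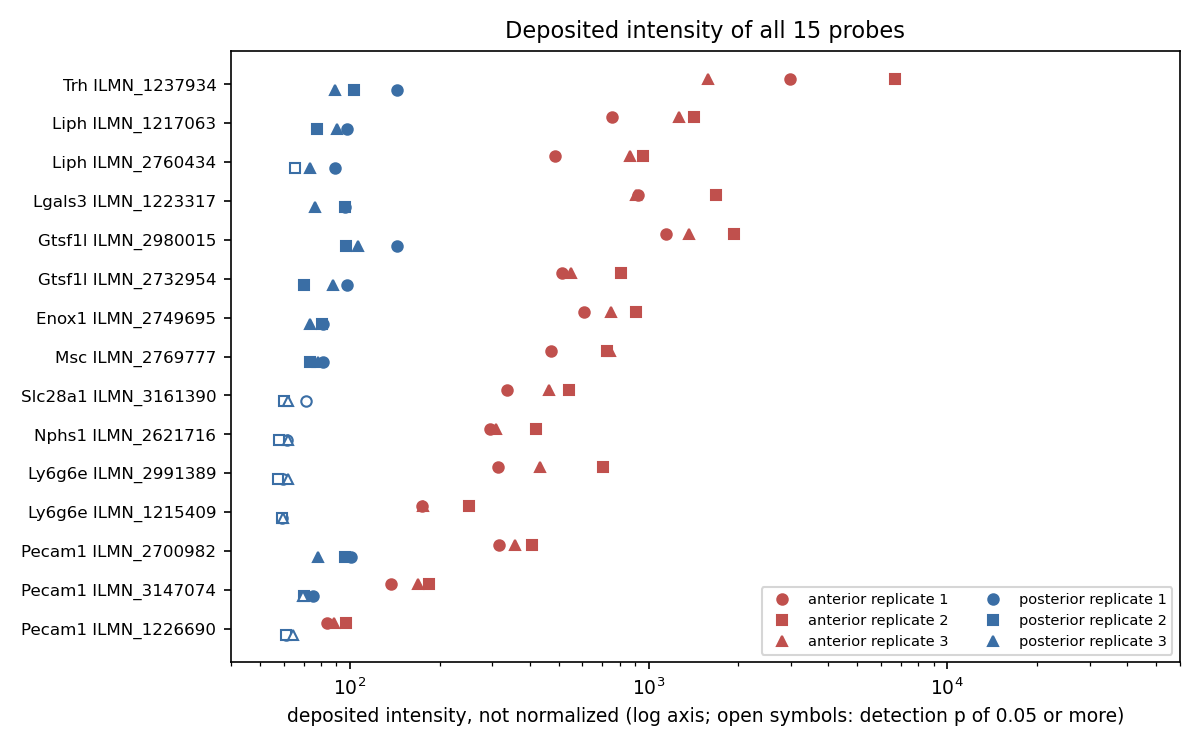
Deposited intensity without normalization (horizontal log axis) of all 15 named probes of the 10 genes on the anterior (red) and posterior (blue) arrays, with open symbols where the detection p-value was 0.05 or more. Each probe separates the groups, and the gap is narrowest for ILMN_1226690 of Pecam1, at 83.6 to 96.8 against 61.0 to 64.3.

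Endothelial genes went both ways beside Pecam1. Of 18 markers 9 were tested, and 3 were higher in anterior, 2 were higher in posterior and 4 were not called (median difference 0.41), with a summed linear level of 1845 to 1945 in anterior and 1255 to 1716 in posterior. Over all tested genes 21.5% were higher in anterior and 25.9% were higher in posterior, so calls in both directions do not set these markers apart. The count higher in anterior was 5 with an offset of 50, with the mean of a gene's probes and without posterior replicate 1, where Egfl7 and Plvap, at 0.46 (SE 0.17) and 0.41 (SE 0.15) as reported, also passed, and Egfl7 alone passed without background correction, in the authors' deposited values and with trend and robust variances. The count higher in posterior was 0 without any 1 posterior array, where Flt1 and Sox17 missed the detection filter. When only probes detected on all 6 arrays were kept, 1 was higher in anterior and 0 were higher in posterior. Robo4, a guidance receptor of blood vessels, lay at 7.58, 7.27 and 7.26 in anterior and 4.69, 4.91 and 4.81 in posterior (2.57, SE 0.15, limma adjusted p = 5.75e-06). The junction protein gene Esam was higher in anterior by 1.45 (SE 0.14), and Vwf, a clotting factor of endothelium and platelets, by at least 3.42-fold. No posterior array detected the Vwf probe, which passed the detection filter through anterior alone and missed it without any 1 anterior array. The vascular growth factor receptor gene Flt1 was at least 2.80-fold higher in posterior. Sox17, a regulator of endoderm and arterial endothelium, was at least 4.18-fold higher in posterior, where its levels of 5.78, 6.43 and 8.47 were set apart by posterior replicate 3. Its call was lost without the detection filter (limma adjusted p = 0.0573). Cdh5 and Kdr, which define endothelium most closely, had no named probe, and the part of such cells in the level of Pecam1 was not tested. Of 11 signalling partners of PECAM1 6 were tested, with 2 higher in anterior, the lipid phosphatase gene Inpp5d (1.71, SE 0.14) and the tyrosine phosphatase gene Ptpn6 (0.66, SE 0.19), and 2 higher in posterior, Ptpn11 (-0.98, SE 0.15) and Csk (-0.68, SE 0.18), and a median difference of -0.26. The call of Ptpn6 was lost with arrays scaled to a common median (limma adjusted p = 0.275), without the detection filter (0.0625), without anterior replicate 1 (0.0792) or 2 (0.0545) and without posterior replicate 2 (0.0870). The call of Csk was lost without posterior replicate 2 (limma adjusted p = 0.0712) and without the detection filter (0.0527).

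Msc encodes musculin, a basic helix-loop-helix repressor known from muscle precursors of the head and from lymphocytes. Its probe ILMN_2769777 read 472, 729 and 742 in anterior and 81.5, 73.7 and 78.5 in posterior. The levels were 9.13, 9.20 and 9.58 against 4.95, 4.92 and 5.12, without overlap. Of 15 partners and myogenic factors 8 were tested, and 1 was higher in anterior, 5 were higher in posterior and 2 were not called (median difference -1.15). Tcf15, a helix-loop-helix factor of somites that is also known from embryonic stem cells, was the one that was higher in anterior, at 9.19, 8.98 and 8.87 against 5.83, 5.93 and 5.52 (3.25, SE 0.16, limma adjusted p = 2.96e-06). The inhibitors Id1, Id2 and Id3, which bind and block such factors, were higher in posterior, with differences of -1.31 (SE 0.20), -1.21 (SE 0.22) and -1.67 (SE 0.23). Tcf12, a general dimerization partner, was also higher in posterior (-1.27, SE 0.16). Tcf4 was higher in posterior (-1.10, SE 0.37), and its call was lost with a larger offset (limma adjusted p = 0.0516), with trend and robust variances (0.0816), without the detection filter (0.178), without anterior replicate 1 (0.0506) and without posterior replicate 2 (0.105) or 3 (0.114). Myog, the muscle differentiation factor, had means of 5.27 and 4.93 and did not pass (limma adjusted p = 0.211), except without posterior replicate 2 (0.0392).

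Gtsf1l is a relative of Gtsf1, a small zinc finger protein of the piRNA pathway, which silences transposons in germ cells. Its probe ILMN_2980015 read 1141, 1930 and 1363 in anterior and 144, 97.1 and 106.5 in posterior. Its other probe, ILMN_2732954, read 512, 810 and 549 in anterior and 97.6, 70.2 and 87.5 in posterior. All 6 arrays detected both probes, and neither showed an overlap of the groups, with differences of 4.51 (SE 0.16) and 4.05 (SE 0.20). The CpG-poor promoter printed above belongs to this gene. Of 16 germ cell and piRNA pathway genes 8 were tested, and 2 were higher in anterior, 1 was higher in posterior and 5 were not called (median difference -0.07). Tdrd12, a helicase of piRNA production, lay at 10.04, 9.83 and 10.06 in anterior and 6.80, 6.56 and 6.64 in posterior (3.31, SE 0.14, limma adjusted p = 1.48e-06), and Piwil2, a PIWI protein, was higher in anterior by 1.18 (SE 0.16). Tdrd7 was at least 4.90-fold higher in posterior, with no anterior array detecting it. Ddx4 and Dazl, the defining markers of germ cells in this list, had anterior means of 4.80 and 5.26 and posterior means of 4.98 and 5.71 and did not pass (limma adjusted p = 0.360 and 0.372).

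**Figure D3:**
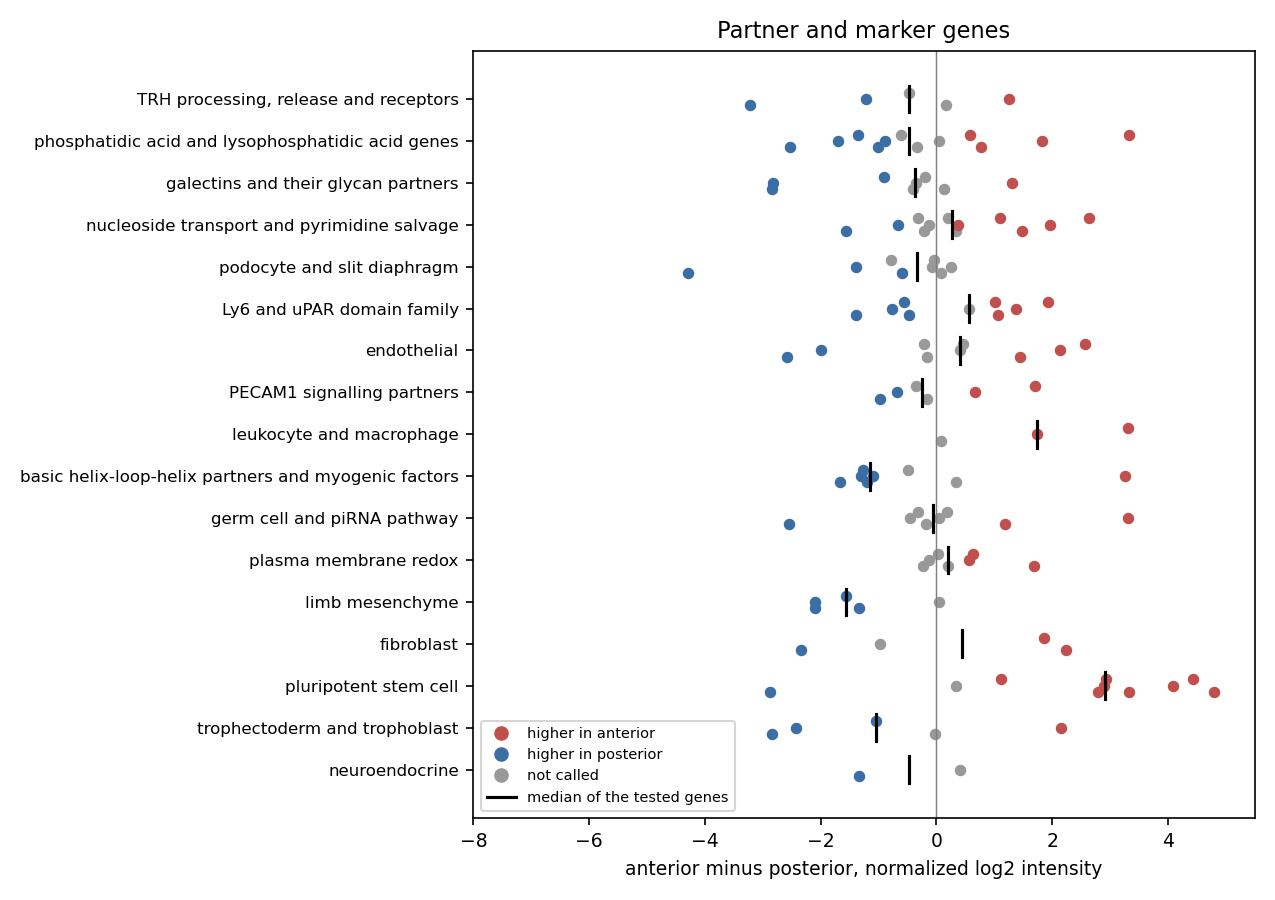
Difference between anterior and posterior (horizontal axis, normalized log2 intensity, anterior minus posterior) of each tested gene of the 17 partner and marker lists, which leave out the 10 genes themselves, coloured by the limma call, with a black line at each list's median. The pluripotent stem cell list has its median at 2.91 and the limb mesenchyme list at -1.55, while most partner lists hold calls in both directions. Over all tested genes 21.5% were higher in anterior and 25.9% were higher in posterior.

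Across the 10 genes, anterior lay above posterior on every array for each of the 15 probes, as it did for 26.9% of all tested genes. The choice of the genes fixed this. All 10 were detected on the 3 anterior arrays, 7 of them also on the 3 posterior arrays, and 3 on no posterior array. Ranked by the anterior excess over the 9257 genes detected on at least 1 array of each group, 7 of the 10 stood at places 2 (Trh), 5 (Liph), 6 (Lgals3), 8 (Gtsf1l), 9 (Enox1), 12 (Msc) and 52 (Pecam1). Slc28a1, Nphs1 and Ly6g6e have only a bound and no place in that order. The median difference of the 10 was 4.47, or 4.41 with the undetected genes at their bound, beside -0.03 over all genes. No fixed size of difference defined the set. Within anterior, replicate 1 gave the highest of the 3 levels for 1 of the 10 genes, and over all genes it was highest for 24.7%.

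Genes of the most similar profile over the 6 arrays were found by the smallest root mean square difference of centred levels, leaving out the 10 themselves. For Slc28a1 and Gtsf1l this was Cpsf4l (0.09 and 0.17), for Msc Dnajc6 (0.10), for Nphs1 Acsbg3 (0.13), for Enox1 the keratin gene Krt42 (0.15) and for Pecam1 Tcf15 (0.16). For Lgals3 and Trh it was the Nodal antagonist gene Lefty2 (0.23 and 0.48), for Ly6g6e the ETS factor gene Etv5 (0.24) and for Liph the homeobox gene Otx2 (0.31). These likenesses are a description over 6 arrays that fall into 2 groups. Slc28a1, Nphs1, Ly6g6e and Otx2 were detected on no posterior array, so their likenesses rest in part on readings under the detection limit.

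The chromosomal neighbours of the 10 genes were read next, taking the nearest 2 protein-coding genes on each side in RefSeq. Of 40 neighbours 23 were tested, beside 9 of the 10 genes, and 7 were higher in anterior (30.4%, against 21.5% of all genes), 3 were higher in posterior and 13 were not called. No tested neighbour of Trh was higher in anterior, except Mrps25 with the mean of its probes (0.43, limma adjusted p = 0.0212). Prickle2, a planar polarity gene, had an anterior mean of 4.99 ± 0.28 and a posterior mean of 8.54 ± 0.88 (SD, n = 3 each), a difference of -3.55 (SE 0.38, limma adjusted p = 0.000158), and Mrps25 and Adamts9 had differences of 0.20 and 0.13. Rbsn was higher in posterior (-0.61, SE 0.19), a call that was lost without any 1 array other than anterior replicate 2 (limma adjusted p = 0.0662 to 0.111) and without the detection filter (0.0883). Next to Gtsf1l, the cell cycle factor gene Mybl2 was higher in anterior by 2.52 (SE 0.14, limma adjusted p = 5.75e-06). Near Nphs1, Aplp1, a relative of the amyloid precursor gene, was higher in anterior by 2.40 (SE 0.22, limma adjusted p = 5.76e-05). Ly6g6c and Ly6g6d, described above and counted among the 7, are the tested neighbours of Ly6g6e on one side, and Abhd16a on the other side had means of 8.29 in both groups. Ly6g6c passed the detection filter through anterior alone. The 3 tested neighbours of Lgals3 and the 2 each of Enox1 and Slc28a1 did not pass, except Dlgap5 beside Lgals3 with the mean of its probes (0.60, limma adjusted p = 0.00747). The calls of Senp2 (beside Liph), Ift52 (beside Gtsf1l) and Polg2 (beside Pecam1), at 0.51, 0.46 and 0.67, were lost with arrays scaled to a common median (limma adjusted p = 0.219, 0.382 and 0.225). The share of neighbours higher in anterior was then 17.4%, against 9.93% of all genes. It was 21.7% against 18.9% without posterior replicate 1, and 39.1% against 23.6% with the mean of a gene's probes. The call of Senp2 was also lost without posterior replicate 1 (0.0530) or 3 (0.0577), and that of Ift52 without anterior replicate 1 (0.0779) and posterior replicate 1 (0.0685) or 2 (0.0938).

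**Figure D4:**
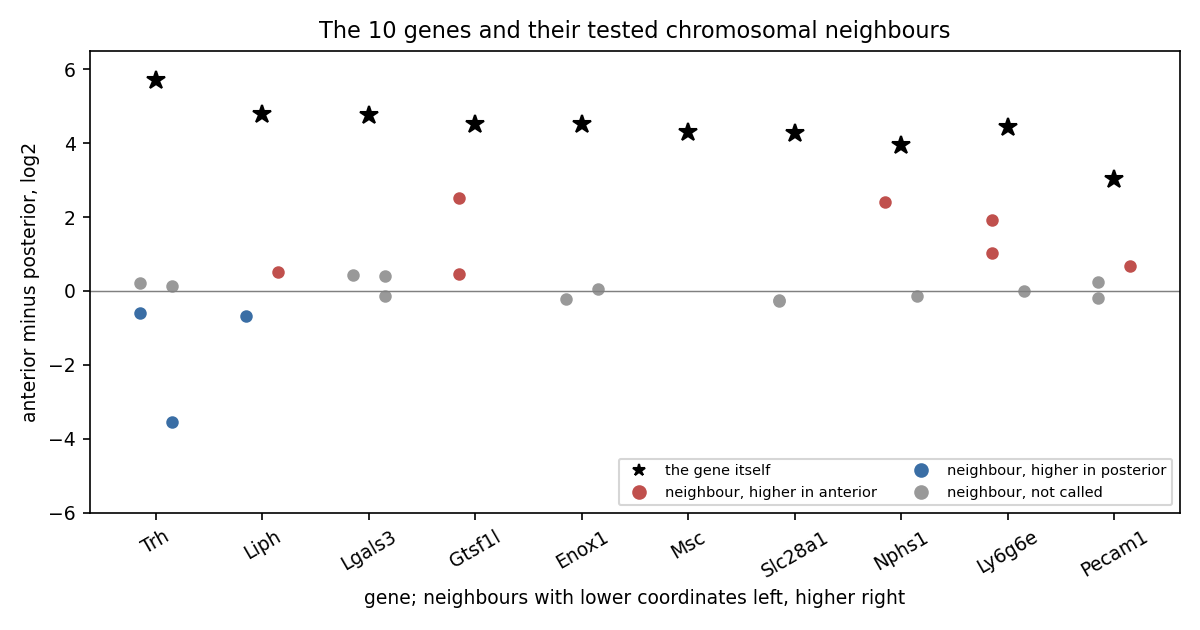
Difference between anterior and posterior (vertical axis, normalized log2 intensity, anterior minus posterior) of each of the 10 genes (star) and of its tested neighbours (points, coloured by the limma call, lower coordinates to the left). The neighbours lie between -3.55 (Prickle2) and 2.52 (Mybl2), and no tested neighbour reaches the difference of its own gene.

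The size of the anterior excess depended on how dim signals were treated, more than on which array was left out. Without background correction the difference fell from 5.72 to 4.90 for Trh, from 4.78 to 3.74 for Liph and from 3.02 to 2.14 for Pecam1, all detected in both groups. Over the 10 genes, 3 of which rest on undetected posterior readings, the median was then 3.22, and it was 3.24 in the authors' deposited values. These 3 could not be followed with an anterior array left out, since their probes then missed the detection filter. Each of the 10 differences kept its sign in every setting that could be run. Their choice for a large excess on these same arrays left little room for another outcome.

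**Figure D5:**
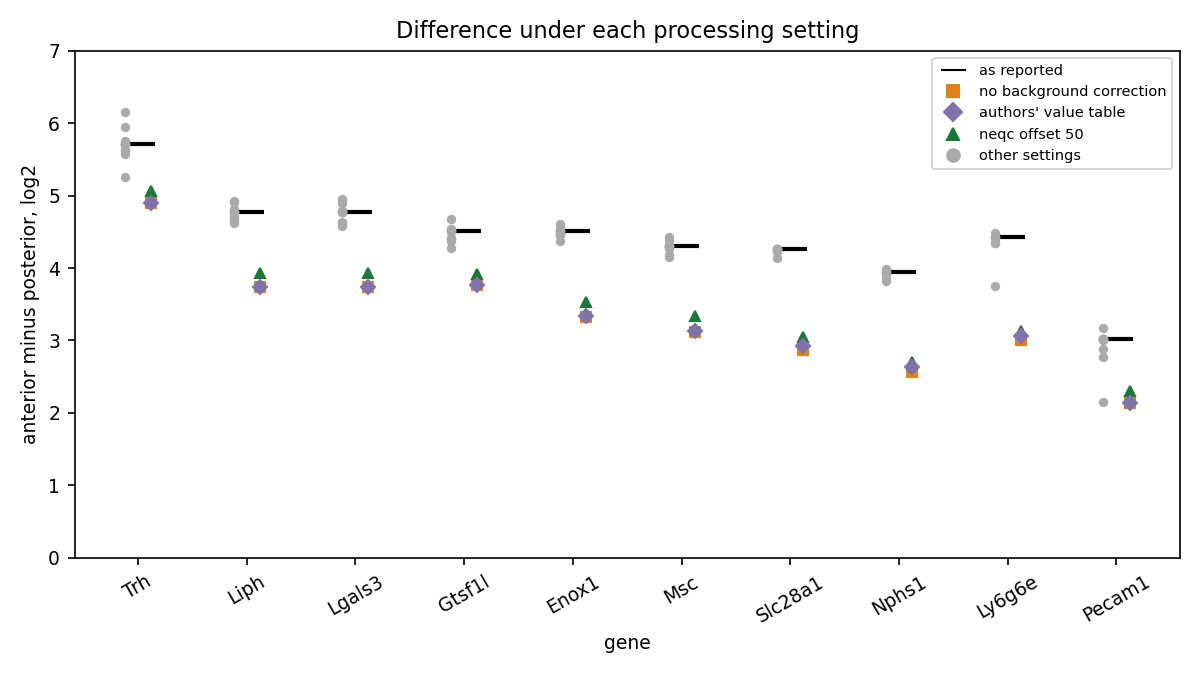
Difference between anterior and posterior (vertical axis, log2, anterior minus posterior) of the 10 genes as reported (black bar) and under each other setting (symbols, with grey points for scaling, filters, probe rule, variance model, block and left-out arrays). The values without background correction, in the authors' table and with the larger offset lie lowest for 9 of the 10 genes, for example 3.74, 3.74 and 3.94 for Liph, and for Pecam1 the mean of its probes (2.15) lies among them. The values of Slc28a1, Nphs1 and Ly6g6e rest on posterior readings that were not detected.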

How the data were processed

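Per the file headers, the authors' deposited table gave a linear intensity and a detection p-value for 45281 probes on each of 6 arrays, without background subtraction or normalization. The authors' deposited log2 values of 18312 probes match those probes' intensities after log2 and quantile normalization to within 5e-09, and the submitters' processing notes name limma. The neqc function of limma 3.58.1 (R 4.3.3, offset 16) normalized the intensities. The 18242 probes detected (p under 0.05) on 3 or more arrays were fitted with lmFit and eBayes, with Benjamini-Hochberg adjustment and a threshold of 0.05. Steps were tested on simulated data. Gene names came from the platform annotation, 1 symbol for 15550 probes, of which 15537 matched RefSeq. Each gene was read from its brightest tested probe by mean level. For a probe undetected in a group, "at least" folds set the bright group's mean against a floor, per array the lowest signal among detected probes or the probe's own signal where that was higher.

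The 10 genes, the 17 lists, of whose members some have no named probe, and the rule for named genes (all 10, up to 4 genes of a list in each direction, and relatives of the 10) were chosen with earlier results of these data known. Motifs and the neighbours were chosen after the values were seen. The number of arrays limits the precision. Plots were made in Python 3.11.15 (matplotlib 3.10.9).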

Additional observations from a re-analysis of the deposited data

How the results depend on the processing

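The median anterior excess of the 10 genes, 4.47 as reported, was 3.22 without background correction, 3.44 with an offset of 50 and 3.24 in the authors' values. It was 4.30 to 4.47 in the other settings that tested all 10, and 4.41 to 4.48 when any 1 posterior array was left out. With an anterior array left out, or only probes detected on all 6 arrays, 3 of the 10 genes were not tested and no median was formed. Keeping only probes detected on all 6 arrays also lowered list counts. The count higher in posterior was then 3 for the lysophosphatidic acid list, 1 each for the nucleoside and podocyte lists and 0 each for the germ cell and neuroendocrine lists. For the fibroblast list the count higher in anterior was 1. Genes higher in anterior numbered 2128, or 984 with arrays scaled to a common median, which moved the median of all genes from -0.03 to -0.20 and the share of calls that were higher in anterior from 45.3% to 27.9%. Leaving out 1 array gave 1615 to 2051 genes higher in anterior and 1577 to 2476 higher in posterior, against 2571, with 1577 without posterior replicate 2 and 1711 without posterior replicate 3. Same-numbered samples deviated together at r = 0.29, 0.16 and -0.08 for replicates 1, 2 and 3. Differently numbered samples were not set beside these values, so they do not settle whether the numbers pair the samples. With the replicate block 2163 genes were higher in anterior and 2581 in posterior, the median was 4.47, and among the called list and neighbour genes the call of Slc29a4 alone was lost (limma adjusted p = 0.0766), while Dcn became higher in posterior (0.0434), for a fibroblast count of 2. Of 86 called list and neighbour genes, 0 reversed in the alternatives in which they were tested. Only 60 were still tested with probes detected on all 6 arrays, 74 without any 1 posterior array and 81 without any 1 anterior array. The most calls lost in 1 setting were 10, both without the detection filter and without posterior replicate 2.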
